A study of Mus musculus with 18 samples.

Results

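The subject is a set of 184 Argonaute 2 (Ago2) peaks in mouse colon that lie in transcripts of cytoskeleton and cell junction genes. The peaks were chosen by gene name from the authors' annotation of 5554 merged peaks, of which 5448 carry a gene label. Taken were labels of actins, alpha-actinins, myosins, keratins, tubulins, claudins, numbered cadherins, protocadherins, tight junction proteins, catenins, integrins and laminins, together with Dstn, Dst, Vil1, Ezr and Cfl1. The 184 peaks carry 57 of the 2568 gene labels, and no read count was used to choose them. No protocadherin label was among them.

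The peaks come from HEAP, a form of CLIP-seq in which Halo-tagged Ago2 is pulled down after UV crosslinking and the RNA it held is sequenced. The mice were C57BL/6 animals of 8 to 12 weeks, and the lining scraped from their distal colon received 3 UV exposures of 400 mJ per cm2. The WT group was Halo-Ago2/+; Fabp-Cre/+ and the G12D group Halo-Ago2/+; Fabp-Cre/+; K-Ras-G12D/+, so both groups carry 1 Halo-Ago2 allele and Cre, and they differ in the oncogenic K-Ras allele. Each genotype had 3 miRNA, 3 pulldown mRNA and 3 input control libraries, and the input controls are not used here. A difference in a peak therefore cannot be told apart from a difference in the amount of its transcript, and in bulk tissue fewer cells of a type and less RNA per cell cannot be told apart either. The labels name Fabp-Cre without saying in which cells it acts, nor do they tie libraries to animals, so every p-value speaks only of the spread between these libraries.

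Ago2 is the protein that carries miRNAs to their target RNAs, and a peak marks a place where fragments bound to it piled up. A miRNA recognises a target chiefly through its seed, the bases near its 5′ end, and pairing in a 3′ UTR usually lowers translation or stability of the message. In colonic epithelium, actin filaments crosslinked by villin and tethered by ezrin fill the microvilli of the brush border. Keratins 8, 18, 19 and 20 form the intermediate filaments of these cells, claudins and the Tjp scaffold proteins seal the tight junction, cadherins and catenins join neighbouring cells, and integrins hold them to the laminins of the basement membrane.

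The miRNA seed families with a match of 7 bases or more in the most peaks of the set were, by the authors' annotation, the miR-24-3p family with 10 peaks, miR-15/16 with 8, and let-7, miR-103/107 and miR-7 with 6 each. The families of miR-194, miR-196 and miR-27 had 5 each. Counted were matches to bases 2 to 8 of the miRNA. Sites that the annotation lists in a separate class, with bases 2 to 7 and an A opposite base 1, were not counted. The mature sequence of the most abundant miRNA of each family is given here, from RefSeq (GRCm38.p6), 5′ to 3′, with the seed, bases 2 to 8, in capitals, because these are the letters against which the peaks were matched.
miR-24-3p: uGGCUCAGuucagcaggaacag
miR-16-5p: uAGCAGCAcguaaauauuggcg
let-7b-5p: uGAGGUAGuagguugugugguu
miR-103-3p: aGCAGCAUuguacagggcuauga
miR-7a-5p: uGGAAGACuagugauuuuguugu
miR-194-5p: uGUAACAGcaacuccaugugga
miR-196b-5p: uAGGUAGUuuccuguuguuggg
miR-27a-3p: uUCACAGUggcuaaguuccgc
No 2 of these 8 seeds are the same. The seeds of miR-16-5p and miR-103-3p share a run of letters offset by 1 base, as do those of let-7b-5p and miR-196b-5p, so one stretch of RNA can be listed for both families.

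In all, 94 of the 184 peaks (51.1%) held such a match, to bases 2 to 8, for any annotated family, against 59.7% of all labelled peaks. In these matches 47 families were represented, 22 of them in a single peak. The let-7 family was matched in 3.26% of the set and in 8.33% of all labelled peaks, and the miR-24-3p family in 5.43% and 3.36%. Of the 184 peaks 83 lay in 3′ UTRs (45.1%, against 54.7% of all labelled peaks), 73 in exons outside the UTRs (39.7% against 31.4%) and 20 in introns (10.9% against 8.13%). The median width was 56 bases in the set and among all labelled peaks. These shares describe the annotation and carry no test.

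The pulldown libraries were of unequal depth: reads in merged peaks numbered from 54401 to 148770 in WT and from 148927 to 723937 in G12D. After the authors' scaling 1 read was worth between 1.29 and 2.90 normalized reads in WT and between 0.206 and 1.09 in G12D, so low values are coarser in WT. Colonocyte and goblet cell genes had a merged peak in 15 of 15 cases, and their summed level was 10005 to 11247 normalized reads in WT and 8005 to 9551 in G12D. Most of that level in WT was Lypd8, whose sum alone of the 15 fell by limma, and 6 sums were higher. Of all tested gene sums 35.8% were higher and 14.2% lower. Without Lypd8 the summed level was 1794 to 2397 in WT and 5696 to 7222 in G12D. Much of that rise was Muc2, with 695 ± 217 in WT and 3706 ± 714 in G12D (SD). Car2, Slc26a3, Agr2 and Clca1 were not called, nor was Slc12a2, whose mean went from 39.2 to 11.4. That list also holds Cdh17 and Krt20, and the part of these markers in the results was not tested. No merged peak carried any of 13 smooth muscle and stromal genes, among them Acta2, Actg2, Myh11 and Des, or any of 8 blood and endothelial genes. Of 5 neuronal and enteroendocrine genes Chga and Chgb had peaks, which summed to 0 to 11.6 normalized reads in WT and 14 to 27.3 in G12D.

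Of the set's peaks, 159 averaged 5 or more normalized reads over the 6 libraries and were tested, and 64 were higher and 19 lower in G12D than in WT (limma on log2(normalized reads + 1), Benjamini-Hochberg adjusted p under 0.05 over all 4438 tested peaks). The background was 36.2% higher and 12.7% lower among all tested peaks, 48.9% in either direction, and the set's 40.3% and 11.9% are near it. The median log2 fold change was 1.11 in the set and 1.05 over all tested peaks, so the set as a whole moved with the rest of the table. The libraries of both genotypes did not overlap for 77 peaks with G12D above and 25 with G12D below, against 43.9% and 15.2% of all tested peaks (59.1% in either direction). Scaling moves this split: quantile normalization gave 42 higher and 24 lower, edgeR's quasi-likelihood test on the recovered reads 46 and 33, and DESeq2 51 and 28. Over all tested peaks the median was 0.16, 0.47 and 0.66 in these fits, so a change has to be read against that shift. The shares of all tested peaks called in these fits are not given here, so these counts have no background beside them.

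The 25 peaks below the minimum had means of 1.85 to 4.97, and 11 of them had 0 reads in WT. Of the 159 tested, 56 reached a mean of 5 in G12D only and 42 of these were higher (75%), against 68.7% of all such peaks. In WT only 7 reached it and all 7 were lower, against 86.8% of all such peaks. Both counts follow in part from the minimum itself. Of the 96 that reached it in both genotypes, 22 were higher and 12 lower (22.9% and 12.5%), with a median of 0.51. All tested peaks that reached it in both had 18.5% higher, 13.1% lower and a median of 0.33. Above an average of 20 normalized reads lay 60 peaks, of which 17 were higher and 15 lower, against 32.3% and 27.2% of all peaks of that level, and their median was 0.0019.

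The deposited lists of peaks called in each genotype divide the set further, but they were made from the same reads and are no separate evidence. Of the tested peaks 100 were in the G12D list only, and 57 of these were higher and 0 lower, against backgrounds of 47.0% and 0.663% for that list. Of 31 in the WT list only, 15 were lower, against 74.3% of all such peaks, and 0 were higher, against 0.676%. Among the 28 in both lists 7 were higher and 4 lower, against 13.9% and 25.6%. By the adjusted p of the authors' deposited table, peaks of the set that were higher numbered 75 and those lower 20, against 37.9% and 11.6% of all peaks with an adjusted p there, and 81 of the 83 limma calls were shared in direction.

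**Figure D1:**
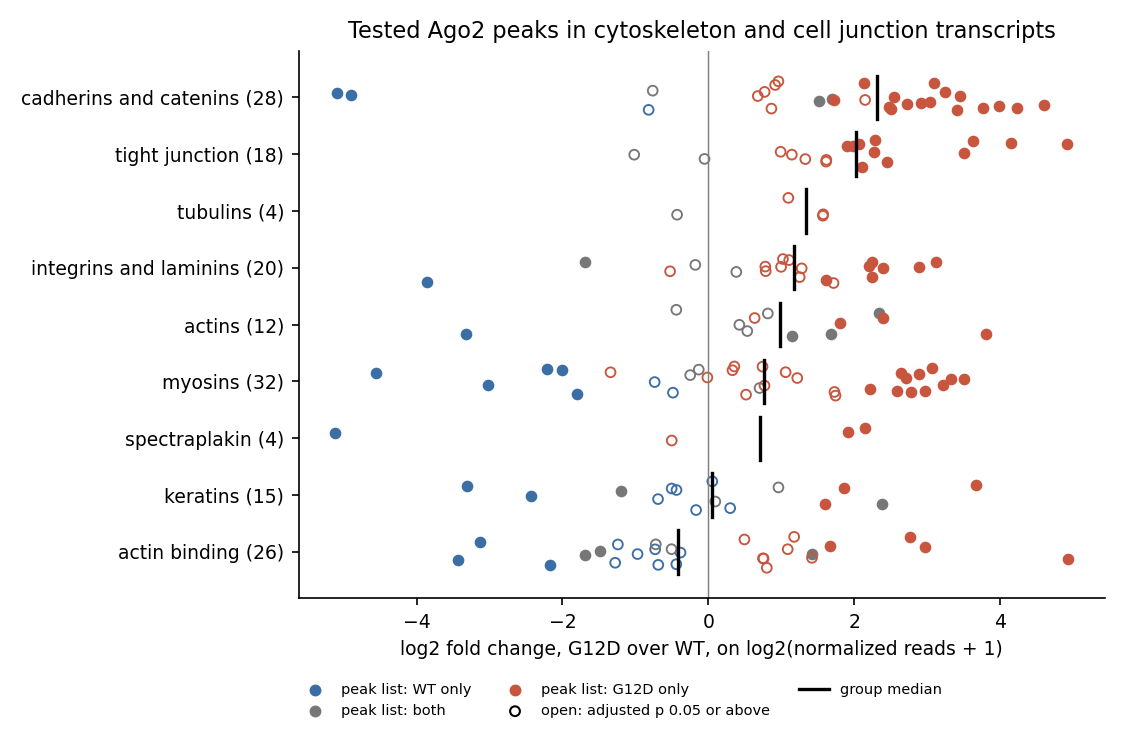
Each point is a tested peak of the set, placed by its log2 fold change (G12D over WT, on log2(normalized reads + 1)) within its gene group, with the number of tested peaks in brackets. Blue, grey and red mark peaks in the WT list only, in both lists and in the G12D list only, filled points have an adjusted p under 0.05, and black bars are group medians; the bars run from -0.41 for actin binding proteins to 2.31 for cadherins and catenins.

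The counts and medians by gene group, which the plot of changes by gene group shows, are given as a description. Cadherins and catenins had 18 of 28 tested peaks higher and 2 lower (median 2.31), and tight junction genes 11 of 18 higher and 0 lower (median 2.03; 1 lower at an unadjusted p under 0.05). Actins had 6 of 12 higher and 1 lower (median 0.98), integrins and laminins 7 of 20 higher and 2 lower (median 1.18), and myosins 11 of 32 higher and 5 lower (median 0.76). Keratins had 4 of 15 higher and 3 lower (median 0.06), and the actin binding proteins Actn1, Actn4, Cfl1, Dstn, Ezr and Vil1 had 5 of 26 higher and 5 lower (median -0.41). Dst had 2 of 4 higher and 1 lower, and none of the 4 tubulin peaks passed. The medians of cadherins and catenins and of tight junction genes stood above that of all tested peaks in each of 4 other scalings (1.4 and 1.31 against 0.16 under quantile normalization), and that of the actin binding proteins stood below it (-0.59 there). Among peaks averaging 20 or more, however, the 8 of cadherins and catenins had a median of 0.10 against 0.13, and the 4 of tight junction genes one of 1.03. Among peaks in both lists, the 3 of cadherins and catenins had a median of 1.52 and the 2 of tight junction genes one of -0.53, against -0.45 for all such peaks. Part of each median rests on members that reached the minimum mean only in the genotype where they were high, so nothing is read from it. Of the cadherin and catenin peaks, 17 reached it in G12D only (15 higher), 2 in WT only (both lower) and 9 in both genotypes (3 higher, 0 lower, median 0.96). Of the tight junction peaks, 9 reached it in G12D only (7 higher) and 9 in both (4 higher, 0 lower, median 1.62). Over the whole table, peaks that reached it in both had a median of 0.33, with 18.5% higher and 13.1% lower. Of those that reached it in G12D only 68.7% were higher, and of those in WT only 86.8% were lower. The actin binding peaks that reached it in both numbered 20, with 2 higher and 5 lower (median -0.70). The keratin median changed sign, to -0.55 in edgeR, -0.35 in DESeq2, -0.06 among peaks averaging 20 or more, -0.03 without G12D replicate 2, and -0.15 and -0.05 without WT replicate 1 and 2. The tight junction count was smaller without any 1 G12D library (5 without replicate 1, 6 without replicate 2, 5 without replicate 3), and the actin count was 3 without G12D replicate 2 or 3. Without G12D replicate 1, 2 and 3 in turn, integrins and laminins had 5, 3 and 4 peaks higher, myosins 7, 8 and 7, and keratins 2 each time. By edgeR and by DESeq2 integrins and laminins had 4 higher and keratins 2. Under quantile normalization myosins had 5 higher and 7 lower (median -0.09), and integrins and laminins 1 higher and 2 lower. For the actin binding proteins edgeR gave 3 higher and 12 lower, and for tight junction genes edgeR and DESeq2 each gave 1 lower.

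The share of all merged-peak normalized reads that fell in the set was 4.56%, 4.93% and 6.03% in the WT libraries and 5.64%, 6.01% and 5.88% in the G12D libraries. The ranges overlapped, and the means of 5.17% ± 0.765 and 5.85% ± 0.186 (SD, n = 3 each) differed by less than the spread allows to call (exact permutation test, two-sided, p = 0.4, where 0.1 is the smallest 3 against 3 can give). Wilson 95% intervals on the recovered reads ran from 4.75% to 5.12% in the shallowest library and from 5.96% to 6.07% in the deepest, and cover counting error only. Actins held 2.24% ± 0.270 in WT and 2.92% ± 0.0767 in G12D, with every G12D library above every WT library. Actin binding proteins held 0.971% ± 0.132 and 0.739% ± 0.0662, with every G12D library below. Tight junction genes held 0.177% ± 0.0105 and 0.314% ± 0.0398, and myosins 0.226% ± 0.0163 and 0.354% ± 0.0156, again without overlap. Of the 9 groups 6 reached the smallest exact permutation p of 0.1 (unadjusted), namely these 4, cadherins and catenins, and tubulins. Such separation is common here, as 59.1% of all tested single peaks did not overlap between genotypes. No share was computed for other groups of genes.

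Actb, the cytoplasmic beta-actin of every cell, was the most heavily bound gene of the set. Its 12 peaks summed to 4403, 3330 and 4885 normalized reads in WT and 4744, 4243 and 5323 in G12D. The groups overlapped and the sum did not pass (log2 fold change 0.19 ± 0.31 SE, limma adjusted p = 0.62 over all 2245 tested gene sums), though it was called higher under quantile normalization (0.70, adjusted p = 3.51e-06). Within that sum the reads were spread differently. The highest peak of the set, an exon peak at chr5:142905346-142905396 (GRCm38, minus strand), took 64.0% of the Actb reads in WT and 41.7% in G12D.

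That exon peak stood at 2902, 2150 and 3021 normalized reads in WT and 2051, 1592 and 2320 in G12D, which overlapped (log2 fold change -0.44 ± 0.46, limma adjusted p = 0.431). Its direction depended on the scaling, with a call of higher under quantile normalization (0.48, limma adjusted p = 0.0496) and of lower in edgeR (-0.98, adjusted p = 0.0291). Separated from it by 53 bases, the exon peak at chr5:142905450-142905480, which holds a seed match to miR-10-5p, fell from 571, 406 and 842 to 63.3, 50.1 and 58.9 (log2 fold change -3.32 ± 0.35, limma adjusted p = 0.000127). Towards the 3′ end the opposite was measured. The exon peak at chr5:142904463-142904505 rose from 31.8, 23.2 and 28.4 in WT to 402, 383 and 411 in G12D (3.81 ± 0.31, limma adjusted p = 3.81e-05). Its neighbour 41 bases away, at chr5:142904547-142904600 and with seed matches to let-7 and miR-196, rose from 236, 165 and 351 to 1237, 1132 and 1282 (2.34 ± 0.38, limma adjusted p = 0.00061). In these 3 called peaks every G12D library lay on one side of every WT library. Reads of Actb can also come from near-identical copies and from Actg1, and how such reads were assigned is not given in the sources used here; Actg1 itself had 1 peak of the set, with 0 reads in WT and 61 in G12D, below the minimum.

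To set a peak apart from the level of its gene, each tested peak was also compared with the summed reads of the other tested peaks of the same gene. This ratio is not moved by a factor shared by the whole transcript. In 28 genes of the set with 2 or more tested peaks, 30 of 134 peaks were higher and 17 lower relative to the rest of their gene (limma, adjusted over all 2965 such peaks), 47 in all, against a background of 19.1% higher, 12.8% lower and 31.9% in either direction. The called peaks lay in 23 genes. In 8 genes with exactly 2 tested peaks the values of both are mirror images and count as 1 measurement. The called numbers were 28 without G12D replicate 1 and 31 without G12D replicate 2.

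For Actb the peak at chr5:142904463-142904505 was higher relative to the rest (3.73 ± 0.48, limma adjusted p = 0.00131), as was its neighbour at chr5:142904547-142904600 (2.49 ± 0.51, adjusted p = 0.00716). The exon peak at chr5:142905450-142905480 was lower (-3.72 ± 0.50, limma adjusted p = 0.00138). The highest peak was not called in this comparison either (-1.34 ± 0.56, adjusted p = 0.0951).

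**Figure D2:**
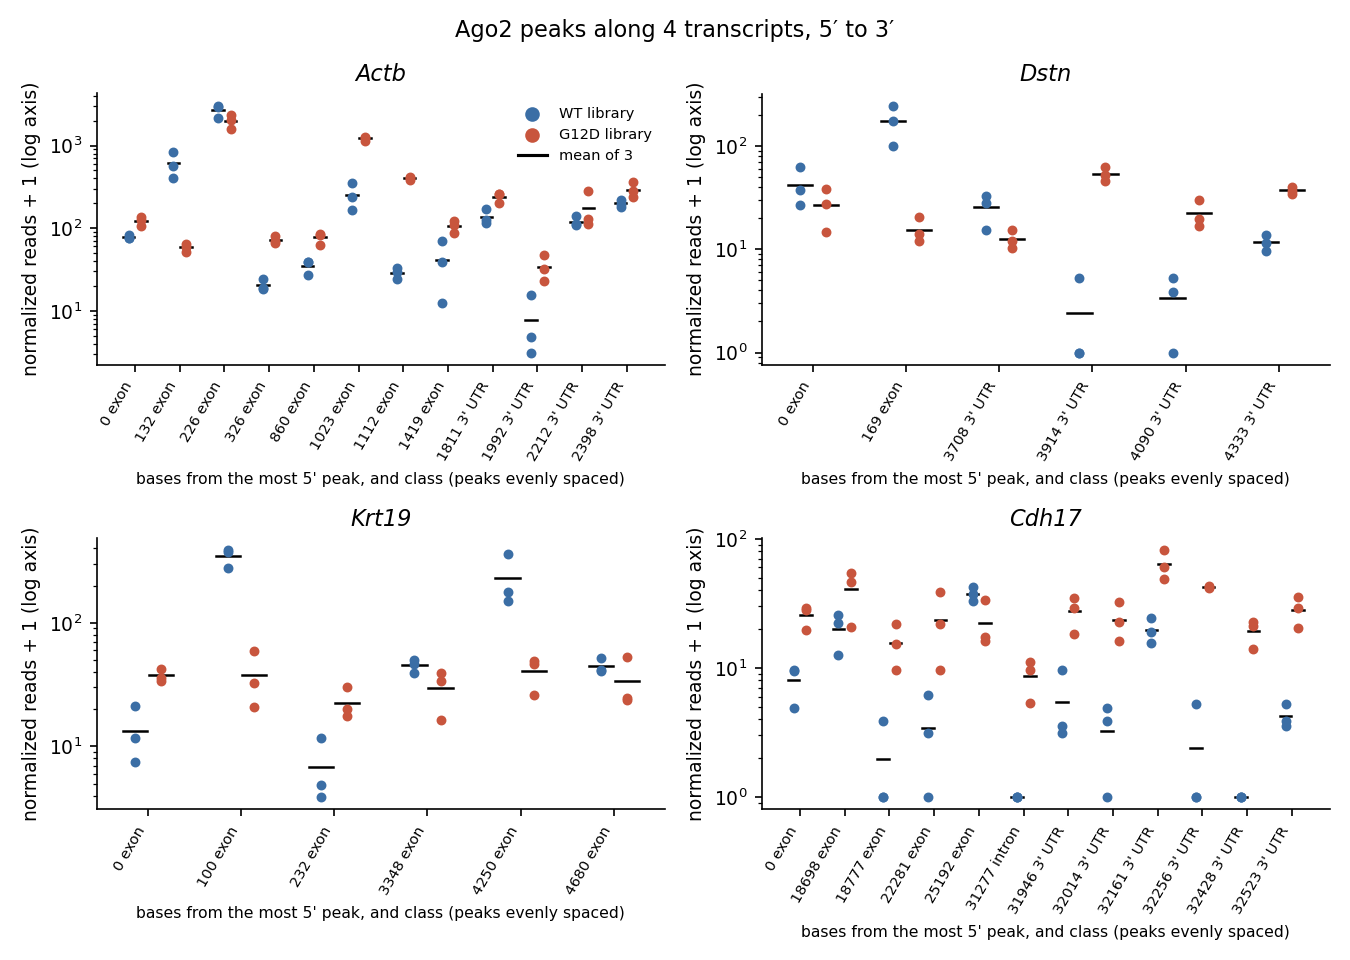
Normalized reads + 1 (log axis) of every peak of Actb, Dstn, Krt19 and Cdh17, ordered 5′ to 3′ and labelled with the distance in bases from the most 5′ peak and with the authors' annotation class; points are the 3 WT (blue) and 3 G12D (red) libraries and bars their means. In Actb the peak at 132 bases is lower in G12D and the peaks at 1023 and 1112 bases are higher, in Dstn the peak at 169 bases is lower and that at 3914 bases higher, and in Cdh17 9 of 11 tested peaks are higher.

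Destrin (Dstn), which severs and depolymerises actin filaments, had peaks that moved far apart. Its 6 peaks summed to 261, 151 and 345 normalized reads in WT and 154, 189 and 142 in G12D, which overlapped (log2 fold change -0.57 ± 0.32, limma adjusted p = 0.159, or 0.0203 without WT replicate 2). The exon peak at chr2:143938638-143938693, with a seed match to miR-378-3p, fell from 174, 98.5 and 244 to 10.9, 13 and 19.4 (-3.43 ± 0.42, limma adjusted p = 0.000231). It held 68.2% of the Dstn reads in WT and 8.93% in G12D, and it was also lower relative to the other Dstn peaks (-4.33 ± 0.58, limma adjusted p = 0.00138).

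In the 3′ UTR of Dstn the pattern was turned. The peak at chr2:143942384-143942436 stood at 4.25, 0 and 0 in WT and rose to 51.3, 62.1 and 44.5 in G12D (4.93 ± 0.72, limma adjusted p = 0.000384; relative to the rest 6.06 ± 0.72, adjusted p = 0.00126). Its WT value rests on 2 reads against 410 in G12D, a scaled ratio of 45.6 with an exact 95% counting interval of 12.5 to 378. Next to it, chr2:143942540-143942633, with a match to miR-146, rose from 4.25, 2.90 and 0 to 18.5, 29.3 and 15.8 (2.98 ± 0.73, limma adjusted p = 0.00625, or 0.0522 without G12D replicate 2). The last 3′ UTR peak rose from 10.6, 8.69 and 12.9 to 36.0, 33.0 and 39.5 (1.68 ± 0.42, limma adjusted p = 0.00702). All 3 lay without overlap, while the first 3′ UTR peak of the gene went from 31.8, 14.5 and 27.1 to 10.9, 14.4 and 9.34 and, though apart as well, was not called (limma adjusted p = 0.115).

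Villin (Vil1), which bundles the actin of microvilli, had 10 tested peaks, 1 higher and 1 lower. Its highest, an exon peak at chr1:74428116-74428172, held 446, 377 and 673 normalized reads in WT and 221, 347 and 328 in G12D without overlap (-0.72 ± 0.37, limma adjusted p = 0.119; edgeR adjusted p = 0.00606 and DESeq2 0.0121). The first exon peak was lower, from 172, 296 and 291 to 76.3, 64.8 and 134, and an exon peak with a miR-194-5p match was higher, from 72.2, 63.8 and 58.0 to 172, 194 and 161 (1.43 ± 0.31, limma adjusted p = 0.00328). Neither overlapped between genotypes. The Vil1 sum was 924 ± 171 in WT and 650 ± 81.3 in G12D (SD, n = 3 each) and did not pass (-0.50 ± 0.26, limma adjusted p = 0.121, or 0.0462 under quantile normalization).

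Ezrin (Ezr), which ties the membrane to actin, had 4 tested peaks, 2 of them lower and 0 higher. Its highest peak, chr17:6755843-6755889 in an exon, held 437, 275 and 387 normalized reads in WT and 239, 228 and 299 in G12D, which overlapped (-0.50 ± 0.34, limma adjusted p = 0.227; edgeR 0.0203 and DESeq2 0.0317). A second exon peak was lower, from 106, 69.6 and 112 to 13.1, 7.84 and 9.34 (-3.13 ± 0.40, limma adjusted p = 0.000271). The Ezr sum was lower in G12D (535 ± 125 against 311 ± 33.9, log2 fold change -0.76 ± 0.26, limma adjusted p = 0.0337), but this call ended without WT replicate 1 or 3 or any 1 G12D replicate and without the variance trend, with adjusted p up to 0.126. Cofilin (Cfl1) and alpha-actinin 4 (Actn4), which sever and crosslink actin, had sums of 29.6 and 36.2 (adjusted p = 0.678) and of 69.5 and 31.4 (lower, adjusted p = 0.0463, with overlapping libraries) in WT and G12D, by limma.

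Keratin 19 (Krt19) was the only keratin whose summed reads were called by limma. Its 6 peaks, all in exons, summed to 658, 536 and 839 normalized reads in WT and 182, 157 and 249 in G12D, with no overlap (-1.79 ± 0.28, limma adjusted p = 0.000565). The exon peak at chr11:100145676-100145732 fell from 372, 275 and 384 to 31.6, 20.01 and 58.2 (-3.31 ± 0.40, limma adjusted p = 0.00023) and went from 50.7% of the Krt19 reads to 18.7%. A second exon peak, 4250 bases from the most 5′ one, fell from 176, 148 and 360 to 25.1, 45.8 and 48.1 (-2.44 ± 0.42, limma adjusted p = 0.00089). Both peaks that flank the former, at gaps of 82 and 47 bases, went the other way.

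One of these, chr11:100145553-100145593, rose from 10.6, 2.90 and 3.87 to 29.4, 19.0 and 16.5 (1.87 ± 0.60, limma adjusted p = 0.0228; relative to the rest 3.82 ± 0.64, adjusted p = 0.00329). The call on its own level ended without WT replicate 3, without any 1 G12D replicate, and in the edgeR, DESeq2 and quantile fits, with adjusted p up to 0.122. The relative call was kept in its 9 alternatives, but that ratio also moves with the 2 Krt19 peaks that fell, which held most of the other reads in WT. The other flanking peak, with a miR-7-5p match, rose from 10.6, 20.3 and 6.44 to 34.9, 33.0 and 41.7 (1.61 ± 0.48, limma adjusted p = 0.0172). No library of one genotype overlapped the other in either peak.

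Keratin 8 (Krt8), the partner of keratin 18, had its highest peak at chr15:101998469-101998522 in an exon. It held 365, 371 and 763 normalized reads in WT and 182, 257 and 180 in G12D without overlap (-1.20 ± 0.38, limma adjusted p = 0.0222), a call that ended without WT replicate 3, without G12D replicate 1 or 3, without the variance trend and under quantile normalization, with adjusted p up to 0.136. The Krt8 sum was not called (582 ± 229 against 332 ± 51.5, limma adjusted p = 0.0578), and the 1 Krt18 peak held 23.8 ± 9.59 and 20.4 ± 4.51. Keratin 20 (Krt20), found in differentiated colonocytes, had its highest peak at chr11:99437794-99437855, with 200, 232 and 488 against 246, 361 and 311 (0.10 ± 0.40, limma adjusted p = 0.846), and the sign of this difference turned in 5 alternatives. The exon peak beside it was higher, from 63.7, 31.9 and 20.6 to 285, 187 and 122 (2.39 ± 0.46, limma adjusted p = 0.00167), and these groups did not overlap.

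Cadherin 17 (Cdh17), the liver-intestine cadherin, had 12 peaks, of which 11 were tested and 9 were higher. They summed to 102, 84.0 and 102 normalized reads in WT and 274, 346 and 368 in G12D, without overlap (1.76 ± 0.26, limma adjusted p = 0.00041). The largest changes were in the 3′ UTR, where 6 of 6 tested peaks within 638 bases were higher. Of the 9 higher peaks, only those at chr4:11785204-11785258 and chr4:11817363-11817421 reached the minimum mean in both genotypes (WT means 7.02 and 18.6). The others reached it in G12D only, so both counts follow in part from the minimum itself. Among all tested peaks that reached it in G12D only, 68.7% were higher. The peak at chr4:11817464-11817510 stood at 4.25, 0 and 0 in WT and at 40.4, 41.1 and 42.4 in G12D (4.60 ± 0.73, limma adjusted p = 0.000565), with 2 reads in WT against 295 and a scaled ratio of 32.8 (counting interval 9 to 272). The peak at chr4:11817637-11817681 had 0 reads in all 3 WT libraries and 21.8, 20.2 and 12.9 normalized reads in G12D (limma adjusted p = 0.000293), at least 10.1-fold higher against a floor of 3 reads over the WT group. An exon peak went against these, with 36.1, 31.9 and 41.2 in WT and 16.4, 15.3 and 32.3 in G12D. It was not called on its own level (-0.82 ± 0.43, adjusted p = 0.129) and was lower relative to the rest of Cdh17 (-3.13 ± 0.54, limma adjusted p = 0.00376).

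E-cadherin (Cdh1), the main adhesion molecule of epithelial adherens junctions, had 6 tested peaks, 3 higher and 0 lower. Their sum rose from 25.5, 26.1 and 24.5 normalized reads in WT to 86.2, 110 and 97.7 in G12D without overlap (1.90 ± 0.31, limma adjusted p = 0.000672). The largest change was in the 3′ UTR at chr8:106668983-106669037, from 0, 5.80 and 0 to 19.6, 21.7 and 35.9 (3.77 ± 0.81, limma adjusted p = 0.00299), on 2 reads in WT against 173 (scaled ratio 19.2, counting interval 5.25 to 160). No Cdh1 peak was called relative to the other peaks of the gene. The 3 higher peaks reached the minimum mean in G12D only, with WT means of 0, 1.93 and 2.25.

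Alpha-catenin (Ctnna1), which links the cadherin complex to actin, had 4 tested peaks, 3 in introns and 1 in the 3′ UTR. They summed to 6.37, 5.80 and 3.87 normalized reads in WT and 54.5, 53.4 and 62.5 in G12D (3.21 ± 0.44, limma adjusted p = 0.000302). The intron peak at chr18:35165488-35165533, with matches to miR-194-5p and miR-24-3p, had 0 reads in WT and 22.9, 4.33 and 30.2 normalized reads in G12D (limma adjusted p = 0.00116), at least 6.23-fold higher against the same floor. By limma 3 of the 4 tested peaks were higher, on WT means of 0.43, 0 and 1.42. These 3 reached the minimum mean in G12D only. Beta-catenin (Ctnnb1), which also acts in WNT signalling, had its highest peak at chr9:120950894-120950951 in an exon, at 63.7, 40.6 and 20.6 in WT and 109, 94.1 and 130 in G12D without overlap (1.52 ± 0.42, limma adjusted p = 0.0117). That call ended in edgeR (adjusted p = 0.0958), in DESeq2 (0.0585) and without G12D replicate 3 (0.0629). The Ctnnb1 sum of 78.3 ± 29.3 against 154 ± 23.9 was called higher (1.02 ± 0.33, limma adjusted p = 0.0243), and lost the call without WT replicate 3, any 1 G12D replicate or the variance trend, with adjusted p up to 0.106.

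The 2 lower peaks of this group carry unlike labels. One, in a 5′ UTR at chr2:84650614-84650685, is labelled with both Ctnnd1 and the gene model RP23-387F9.7, and went from 144, 34.8 and 357 normalized reads to 5.45, 5.36 and 0.718 (-4.90 ± 0.78, limma adjusted p = 0.000595). The peaks labelled Ctnnd1 alone, for the catenin p120, summed to 6.76 ± 3.48 in WT and 27.6 ± 3.46 in G12D and were called higher (1.97 ± 0.52, limma adjusted p = 0.0091). The other is an intron peak of Cdh18 at chr15:22716364-22716413, at 163, 52.2 and 63.2 in WT and 2.18, 0.413 and 2.15 in G12D (-5.09 ± 0.60, limma adjusted p = 0.000207). Each is the only peak with its exact label, so neither entered the comparison with the other peaks of its gene.

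**Figure D3:**
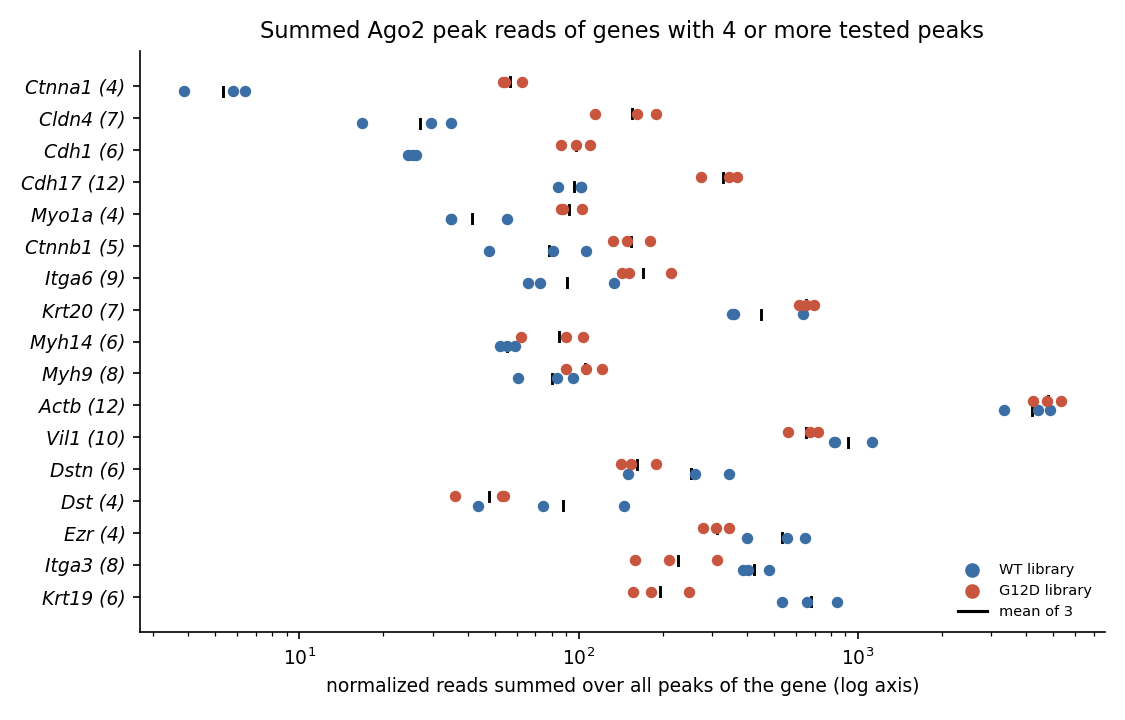
Normalized reads summed over all peaks of a gene (log axis) for the 17 genes with 4 or more tested peaks, ordered by log2 fold change, with the number of peaks in brackets; points are the 3 WT (blue) and 3 G12D (red) libraries and bars their means. Among others, Ctnna1, Cldn4, Cdh1, Cdh17 and Myo1a lie apart with G12D above, Krt19, Itga3, Ezr and Vil1 lie apart with G12D below, and Actb overlaps.

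Claudin 4 (Cldn4), a tight junction seal of the colon, had 7 tested peaks within 1094 bases, 6 of them in the 3′ UTR. By limma 6 were higher and 0 lower, and the sum rose from 29.7, 34.8 and 16.8 normalized reads to 161, 115 and 189 without overlap (2.5 ± 0.36, limma adjusted p = 0.000388). Most of these 6 peaks reached the minimum mean in G12D only, so their count follows in part from the minimum itself. Among all tested peaks that reached it in G12D only, 68.7% were higher. The peak at chr5:134946320-134946366, the only one in an exon, had 0 reads in WT and 24.0, 7.43 and 25.9 normalized reads in G12D (limma adjusted p = 0.000479), at least 6.97-fold higher. It was the one Cldn4 peak called relative to the others (1.83 ± 0.58, limma adjusted p = 0.0397).

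Claudin 7 (Cldn7) had 2 tested peaks and both were higher. In the 3′ UTR, chr11:69967788-69967842 stood at 2.12, 0 and 0 in WT and at 30.5, 54.1 and 49.6 in G12D (4.93 ± 0.67, limma adjusted p = 0.000293), with 1 read in WT against 359 and a scaled ratio of 79.9 (counting interval 14.2 to 3163). The 5′ UTR peak, with a miR-15/16 match, was higher by less (1.90 ± 0.58, limma adjusted p = 0.0185), and the ratio between both peaks changed (3.02 ± 0.56, limma adjusted p = 0.00481 for the 3′ UTR peak). Claudin 12 (Cldn12) had its highest peak at chr5:5507609-5507659 in the 3′ UTR, which rose from 8.49, 20.3 and 2.58 to 45.8, 29.1 and 40.2 without overlap (2.11 ± 0.62, limma adjusted p = 0.0149). This call ended without G12D replicate 1, 2 or 3, with adjusted p of 0.0791, 0.0515 and 0.0772.

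The scaffold protein Tjp1, which anchors claudins to actin, had a sum of 21.4 ± 2.09 normalized reads in WT and 52.8 ± 24.7 in G12D, and was called higher (limma adjusted p = 0.0474). Claudin 3 (Cldn3) did not differ beyond its spread (23.3 ± 9.98 against 21.6 ± 4.84, limma adjusted p = 0.933). The highest peak that the name rule put with the claudins, chr7:43444153-43444207, is labelled Cldnd2, a claudin domain protein and not a claudin, and held 284, 116 and 271 in WT and 59.98, 115 and 154 in G12D, which overlapped (-1.02 ± 0.45, limma adjusted p = 0.0796, or 0.0184 without WT replicate 2; edgeR 0.00189 and DESeq2 0.0102).

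Integrin alpha 3 (Itga3), a laminin receptor, had 7 tested peaks, and its 3′ UTR held peaks that moved apart. Its highest peak, chr11:95045512-95045564, fell from 335, 446 and 333 normalized reads to 124, 63.3 and 184 (-1.69 ± 0.41, limma adjusted p = 0.00538; relative to the rest -2.64 ± 0.69, adjusted p = 0.0182). Further 3′ in the same UTR, chr11:95045285-95045349, with a miR-96-5p match, rose from 4.25, 0 and 0 to 10.9, 10.7 and 14.4 (2.89 ± 0.74, limma adjusted p = 0.00756; relative to the rest 3.95 ± 0.75, adjusted p = 0.00535). Neither overlapped between genotypes. The second rests on 2 reads in WT against 82 (scaled ratio 9.12, counting interval 2.45 to 76.6), and its own call ended under quantile normalization (adjusted p = 0.107).

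The Itga3 sum was lower in G12D (423 ± 48.8 against 227 ± 77.9, -0.94 ± 0.29, limma adjusted p = 0.0191), a call that ended without G12D replicate 1 or 2 and without the variance trend, with adjusted p up to 0.0900. Integrin alpha 6 (Itga6), the partner of beta 4 in hemidesmosomes, had its highest peak at chr2:71843256-71843305 in an exon with a miR-196-5p match, at 40.3, 52.2 and 61.9 in WT and 30.5, 55.7 and 52.4 in G12D (-0.18 ± 0.38, limma adjusted p = 0.71). The Itga6 sum was called higher (90.8 ± 37.6 against 170 ± 39.3, limma adjusted p = 0.0346) and lost the call without WT replicate 1 or 2, any 1 G12D replicate or the variance trend, with adjusted p up to 0.147. The only peak of Itga5, the fibronectin receptor subunit, at chr15:103345132-103345196 in the 3′ UTR and with a miR-26-5p match, fell from 44.6, 23.2 and 24.5 to 1.09, 0.825 and 1.44 (-3.85 ± 0.60, limma adjusted p = 0.00052). Every G12D library was far below every WT library. Itga2, Itgav and Itgb6 were higher in summed reads by limma, on WT means of 1.42, 2.81 and 4.91 normalized reads, all below the minimum of 5. The laminin chain Lamb3 was not called (24.8 ± 11.7 against 23.0 ± 3.14).

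Among the myosins, Myo1a, the motor that links brush border actin to the membrane, showed both directions. Its 4 peaks, all in exons, summed to 55.2, 34.8 and 34.8 normalized reads in WT and 103, 86.4 and 87.6 in G12D without overlap (1.16 ± 0.32, limma adjusted p = 0.011). The first exon peak rose from 14.9, 14.5 and 2.58 to 81.8, 61.1 and 53.9 (2.78 ± 0.58, limma adjusted p = 0.00254) and went from 25.6% of the Myo1a reads to 71.1%. The peak at chr10:127718537-127718611 fell from 31.8, 11.6 and 28.4 to 4.36, 4.75 and 5.03 (-2.01 ± 0.57, limma adjusted p = 0.0129; relative to the rest -4.44 ± 0.76, adjusted p = 0.00356). The former rose and the latter fell without overlap, though the call on the latter's own level ended when reads were thinned to an equal value of 1 read (adjusted p = 0.148).

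The highest myosin peaks lay in the 3′ UTRs of Myo1c and Myo5c and were not called. That of Myo1c, chr11:75672814-75672867, held 34.0, 55.1 and 54.1 normalized reads in WT and 32.7, 32.2 and 56.7 in G12D (-0.25 ± 0.39, limma adjusted p = 0.614). That of Myo5c, chr9:75286481-75286532, with a miR-24-3p match, held 76.4, 20.3 and 47.7 against 41.4, 32.8 and 41.7 (-0.13 ± 0.47, limma adjusted p = 0.828). Both pairs of groups overlapped. The non-muscle myosin heavy chains Myh9 and Myh14 had sums of 80.1 ± 17.6 and 55.5 ± 3.57 in WT and 106 ± 15.8 and 85.2 ± 21.0 in G12D, and neither passed (limma adjusted p = 0.264 and 0.135).

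An intron peak of Myh2, a heavy chain known from skeletal muscle, at chr11:67176406-67176465, held 17.0, 17.4 and 38.7 normalized reads in WT and 0 reads in all 3 G12D libraries (limma adjusted p = 0.000293), at least 65.9-fold lower against a floor of 3 reads over the G12D group. It was the only Myh2 peak and lay in the WT list only, and none of the smooth muscle genes above had a peak. Myo5b and Myo6, motors of membrane traffic, were higher in summed reads, from 2.64 ± 2.93 and 1.57 ± 1.38 to 25.9 ± 6.17 and 20.9 ± 9.23 (limma adjusted p = 0.00374 and 0.00338). Myo1d, Myo10 and the peak labelled Myl6 and Myl6b were higher as well, from means of 0.708, 0.966 and 2.79 to 15.8, 12.1 and 17.9. All of these sums reached a mean of 5 in G12D only, so their calls follow in part from the minimum itself.

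Dystonin (Dst), a spectraplakin that joins intermediate filaments to hemidesmosomes and to other filaments, had 4 tested peaks over 220188 bases. The first intron peak, chr1:34087460-34087518, fell from 57.3, 17.4 and 122 normalized reads to 2.18, 0 and 0 (-5.11 ± 0.80, limma adjusted p = 0.00052; relative to the rest -6.16 ± 0.93, adjusted p = 0.00224). A second intron peak, chr1:34255601-34255653, with a miR-200/429 match, rose from 4.25, 5.80 and 7.73 to 14.2, 34.0 and 30.2 (1.91 ± 0.55, limma adjusted p = 0.0132), but not without G12D replicate 2 or 3 (adjusted p = 0.0904 and 0.0808), under quantile normalization (0.0674) or with thinned reads (0.101). Neither peak overlapped between genotypes. The first took 74.8% of the Dst reads in WT and 1.52% in G12D, and the Dst sum overlapped and was not called (87.8 ± 52.4 against 47.7 ± 10.1, limma adjusted p = 0.177, or 0.0282 without WT replicate 2).

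The tubulins, which build microtubules, had 4 tested peaks, and 0 passed the adjusted threshold in limma, edgeR or DESeq2, while 2 had an unadjusted limma p under 0.05. The highest, in an exon of Tubb4b at chr2:25223006-25223061, held 12.7, 11.6 and 40.0 normalized reads in WT and 9.82, 21.9 and 10.8 in G12D (-0.43 ± 0.58, limma adjusted p = 0.551). The second Tubb4b peak, chr2:25222547-25222616, went from 10.6, 2.90 and 2.58 to 10.9, 16.7 and 19.4 (1.58 ± 0.65, limma adjusted p = 0.0611; 0.0133 without WT replicate 1). The former overlapped between genotypes, and the latter lay apart by less than 1 normalized read. Tubulins, actins and keratins are families of similar sequence, so reads in them may be divided among members.

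Summed by gene, 20 of 53 tested labels were higher and 8 lower, against a background of 35.8% and 14.2% (50.0% in either direction), with a median of 0.59 against 0.81 over all tested gene sums. With quantile normalization the counts were 15 and 12, and the background in that fit is not given here. In 8 genes of the set, of 28 with 2 or more tested peaks, some peaks were higher and others lower. The same count was not made over all genes, so it is not read as a trait of the set. By annotation class 30 of 69 tested 3′ UTR peaks were higher and 2 lower, and 24 of 70 exon peaks were higher and 12 lower; over all tested peaks the shares were 37.7% and 6.81% in 3′ UTRs and 28.7% and 18.6% in exons. The difference between classes thus ran the same way in the set and in the whole table.

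Another list of 86 cytoskeleton and junction genes, none of them in the set, had peaks for 50 genes. By limma 48 of the 122 peaks tested for it were higher and 14 lower (median 1.45), which is 39.3% and 11.5% beside 36.2% and 12.7% of all tested peaks, whose median was 1.05. Of 47 tested gene sums 19 were higher and 5 lower. Dync1h1, the heavy chain of cytoplasmic dynein, fell from 342, 199.98 and 256 to 64.3, 50.8 and 51.7 normalized reads (-2.21 ± 0.29, limma adjusted p = 0.000252). Twf1, the actin monomer binding protein twinfilin, rose from 10.6, 5.80 and 6.44 to 77.4, 113 and 147 (3.71 ± 0.41, limma adjusted p = 0.000146). Both were picked from the list after their values were seen, and neither overlapped between genotypes.

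Finally, the miRNAs of the 8 families were compared in the miRNA libraries. Of 23 tested members 2 were higher in G12D and 0 lower by limma (4 and 1 at an unadjusted p under 0.05), against a background of 15.7% called among 254 tested miRNAs, 9.06% higher and 6.69% lower. miR-27a-3p held 10704, 18201 and 10046 normalized reads in WT and 28847, 26554 and 25426 in G12D without overlap (1.10 ± 0.19, limma adjusted p = 5.57e-05). For miR-194-5p, which is abundant in gut epithelium, the libraries held 19625, 24797 and 15668 against 22875, 33180 and 30335, which overlapped (0.53 ± 0.18, limma adjusted p = 0.0339). The latter call ended without WT replicate 3, without G12D replicate 2 or 3, with the same total per library (adjusted p = 0.483) and without the filter on low values (0.0963). The other 6 miRNAs whose sequences are given above were not called, with adjusted p from 0.143 for miR-103-3p to 0.996 for let-7b-5p.

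Set beside the peaks, the 5 with a miR-27-3p match lay in Cdh17, Itgb1, Myl12b, Mylk and Myo1a, and of the 4 tested 0 were higher and 1, in Mylk, was lower, where 23 of 88 tested miR-27-3p peaks of the whole table were higher and 8 lower. The 5 with a miR-194-5p match lay in Actb, Cdh1, Ctnna1 and Vil1, and 4 were higher and 0 lower. Of all 216 tested miR-194-5p peaks, 101 were higher and 16 lower. In the set, the Cdh1 peak (WT mean 0) and both Ctnna1 peaks (0.43 and 0) were higher and reached the minimum mean in G12D only. Among all tested peaks that reached it in G12D only, 68.7% were higher and 0% lower. The count of 4 thus follows in part from the minimum itself, and nothing is read from it. Of the 6 tested peaks with a miR-24-3p match 2 were higher, of 8 with a miR-15/16 match 4, and of 5 with a let-7 match 2, and 0 were lower in each of these 3 families. Over the whole table the same families had 44, 71 and 134 higher and 16, 24 and 37 lower among 149, 214 and 378 tested peaks.

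**Figure D4:**
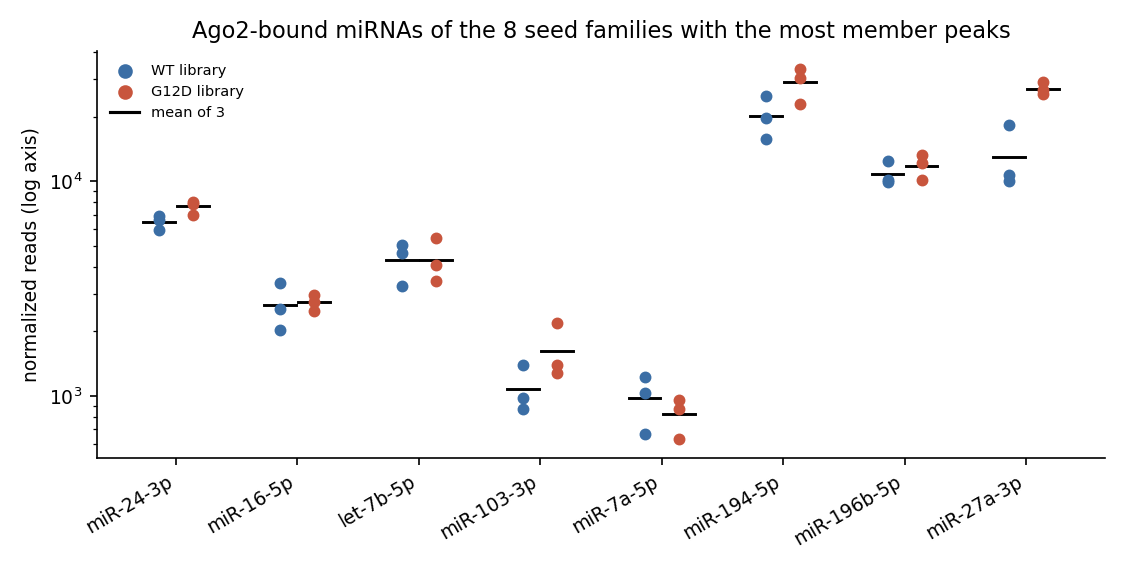
Normalized reads (log axis) of the most abundant tested miRNA of each of the 8 seed families, in the 3 WT (blue) and 3 G12D (red) miRNA libraries, with bars at the means. miR-27a-3p lies apart, with 10046 to 18201 in WT and 25426 to 28847 in G12D, while miR-194-5p overlaps between genotypes and let-7b-5p has nearly equal means.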

How the data were processed

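The 3 WT and 3 G12D pulldown libraries and the matching miRNA libraries were used. The submitters' processing notes list STAR 2.5.2b, DESeq2, mm10 and GRCm38. How peaks were called and reads assigned is not given in the sources used here. The authors' deposited normalized tables hold a signal, reads per merged peak or miRNA divided by 1 factor per library, and 100.0% of values came out as whole reads within 0.01 read. The authors' own comparison was deposited as log2 fold changes, p-values and a test score, per the file headers, and the deposited peak lists carry the authors' score, which was not used. Annotation classes, gene labels and seed matches are the authors', per the file headers. Coordinates are GRCm38, counted from 1, and distances are along the genome, introns included.

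The members, gene lists and naming rule were chosen with earlier results of these data known. Named were the 2 highest peaks of each gene group, the 8 most higher and 8 most lower peaks without overlap, the 8 with the largest change relative to their gene, and genes with 4 or more tested peaks; further peaks of these genes and the genes with fewer peaks were added after their values were seen.

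The main test was limma 3.58.1 (R 4.3.3) with a variance trend on log2(value + 1), for peaks with a mean of at least 5 and miRNAs of at least 10 normalized reads, with the same fit for gene sums and for the ratio of a peak to the other tested peaks of its gene. Errors beside a log2 fold change are SE, and those beside normalized reads or shares are SD with n = 3. For low values such a log2 difference depends on the added 1 and can be smaller or larger than the log2 ratio of the group means. Scripts were tested on simulated data. Lists were matched by an overlap of at least 1 base on the same strand. Alternatives were other pseudocounts (0.5 and 5), filters (none, 20) and scalings, the replicate block, no variance trend, each library left out, edgeR 4.0.16 and DESeq2 1.42.0 on recovered reads, and, added after the data were seen, thinned reads. Counting intervals are exact (Clopper-Pearson) for ratios and Wilson for shares. Replicate libraries differed beyond sampling noise. Some members are not reported here by name.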

Additional observations from a re-analysis of the deposited data

How the results depend on the processing

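Peaks called in the set numbered 83, and 32 with a mean of at least 20 or 11 among peaks in both lists; fewer peaks were tested there. Leaving out 1 library gave 56 to 86. Called gene sums numbered 28, 16 with a mean of at least 20, and 20 to 31 with a library left out; peaks called relative to their gene numbered 47, 29 with a mean of at least 20, and 28 to 53 with a library left out. Called miRNAs numbered 2, 1 without the filter, and 1 to 3 with a library left out. The share difference of 0.673 percentage points ranged from 0.365 to 1.10 with a library left out. Replicate numbers did not pair the libraries (correlations of same-numbered peak deviations 0.0415, -0.0357 and -0.00760). With the replicate block 85 peaks, 29 gene sums, 46 relative peaks and 2 miRNAs were called.

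Differences that were not called changed sign as follows, and the cause was not tested. Quantile normalization gave 0.48 for the highest Actb peak. The same total per library gave 0.014 for the highest Itga6 peak, 0.063 for the Myo5c peak, -0.12 for miR-24-3p, -0.29 for miR-16-5p and -0.24 for miR-196b-5p. edgeR gave -0.55 and DESeq2 -0.35 for the highest Krt20 peak. With 1 library left out, the highest Itga6 peak ranged from -0.34 to 0.090, the Krt20 peak from -0.15 to 0.49, the Myo5c peak from -0.64 to 0.29, the first Tubb4b peak from -0.77 to 0.12, miR-16-5p from -0.10 to 0.26 and let-7b-5p from -0.19 to 0.15.

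Depth limits what the WT libraries can show: 24 tested peaks of the set had 1 to 3 WT reads in all, and 4 had 0.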
